A study of Drosophila melanogaster with 30 samples.

Results

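The cytosolic ribosome of Drosophila melanogaster is built from a set of ribosomal proteins, each encoded by its own gene, and these genes were followed here in wing imaginal discs, the larval tissue that forms the adult wing and the dorsal thorax. They were taken from the RNA count table as the genes whose names begin with RpL or RpS, plus stubarista (sta), with RpLP0-like left out and a mean of at least 10 reads per library required. The count data cover 17868 genes, of which 92 had such a name and 86 met the minimum, 50 of the large subunit and 36 of the small. The choice used names and the mean over all libraries and no difference between genotypes.

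The series asked what GAGA-associated factor (GAF) does for chromatin structure and expression. GAF is a sequence-specific DNA-binding protein encoded by Trithorax-like (Trl), and it forms multimers through its POZ domain. The RNA-seq compared 3 fly lines, all with a Halo tag on GAF: delta-Q and delta-POZ, each named for the domain of GAF it lacks, and Halo-Trl, which carries the tag without either deletion. Each genotype gave 3 libraries, and each library was made from 30 discs of wandering larvae of the last instar. No untagged line is among the RNA libraries, and the labels name 1 line per genotype, so the deletion and the background of its line cannot be told apart. The labels state neither the insertion site of the tagged gene nor the zygosity.

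Ribosomal proteins assemble with ribosomal RNA in the nucleolus, and the subunits are finished in the cytoplasm. Their messages are among the most abundant of a growing cell and are read together under control of the TOR pathway. In flies, loss of a single copy of many of these genes gives the Minute phenotype of slow growth and thin bristles, and in the wing disc such cells are removed by neighbours with a full dose, a process called cell competition.

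Reads in genes numbered 57673928 to 85575887 per library, and 15.1% to 31.2% of them came from the 37 mitochondrially encoded genes. All 17 wing disc markers exceeded 1 CPM (counts scaled to library size) in every library, with a summed level of 2243 to 2839 CPM. The 6 fat body markers summed to 581 to 6205 CPM in delta-Q, 33.5 to 249 CPM in delta-POZ and 15.1 to 5945 CPM in Halo-Trl, and delta-Q 3 and Halo-Trl 1 were the 2 high libraries; none of the 6 was at 0 in all libraries of a genotype. The 5 markers of neurons and glia summed to 10.5 to 23.0 CPM in delta-Q, 17.4 to 407 CPM in delta-POZ and 60.6 to 81.2 CPM in Halo-Trl, and delta-POZ 2 was the high library. Most of the Halo-Trl sum came from elav, at 51.1, 74.0 and 66.9 CPM. This gene had 4.45, 9.28 and 9.24 CPM in delta-Q and 4.88, 137 and 3.36 CPM in delta-POZ. So delta-POZ 1 and 3 lay far below Halo-Trl in elav. Syt1 went the other way, at 11.5, 112 and 14.0 CPM in delta-POZ against 7.63, 5.65 and 3.95 CPM in Halo-Trl. The markers brp, nSyb and repo overlapped between delta-POZ and Halo-Trl. The markers brp, nSyb and Syt1 overlapped between delta-Q and Halo-Trl, and repo was lower in Halo-Trl. The 6 haemocyte markers summed to 1410 to 2512 CPM in delta-Q, 1197 to 1640 CPM in delta-POZ and 1277 to 1477 CPM in Halo-Trl, most of it from Ppn, and single markers moved in opposite directions. PPO1, a prophenoloxidase of crystal cells, had 57.4, 301 and 106 CPM in delta-Q, 2.03, 12.9 and 26.8 CPM in delta-POZ and 100.4, 90.5 and 79.5 CPM in Halo-Trl. PPO2, another such enzyme, had 53.1, 193 and 64.8 CPM in delta-Q, 2.06, 5.12 and 10.3 CPM in delta-POZ and 69.2, 48.1 and 49.7 CPM in Halo-Trl. NimC1, a receptor of plasmatocytes, had 17.8, 31.9 and 12.9 CPM in delta-Q, 22.8, 38.5 and 103 CPM in delta-POZ and 11.3, 5.498 and 3.36 CPM in Halo-Trl. So both prophenoloxidase genes were lower, and NimC1 higher, in every delta-POZ library than in every Halo-Trl library. The 5 markers of differentiated muscle summed to 27.7 to 46.2 CPM in delta-Q, 40.1 to 112 CPM in delta-POZ and 26.2 to 31.4 CPM in Halo-Trl. The sum in delta-POZ lay above Halo-Trl without overlap, also when delta-POZ 2, its highest library, is set aside. Mlc2 had 26.9, 45.8 and 22.8 CPM in delta-POZ and 9.21, 11.7 and 11.4 CPM in Halo-Trl. Act87E had 8.94, 13.0 and 6.52 CPM in delta-POZ and 5.11, 4.50 and 5.22 CPM in Halo-Trl. The other muscle markers, Act57B, wupA and Mhc, overlapped between these genotypes. The part of these tissues in the results was not tested, beyond refitting without delta-Q 3, delta-POZ 2 and Halo-Trl 1. That refit does not remove the haemocyte and muscle marker differences or those of elav and Syt1. Fat body differences remain in it too. The libraries kept had fat body sums of 581 and 955 CPM in delta-Q, 74.5 and 33.5 CPM in delta-POZ and 15.1 and 36.6 CPM in Halo-Trl.

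Trl itself had 56.6, 60.3 and 64.0 CPM in delta-Q discs, 78.4, 67.7 and 61.0 CPM in delta-POZ discs and 51.3, 49.8 and 41.8 CPM in Halo-Trl discs, with a log2 fold change of 0.54 (SE 0.12, adjusted p = 0.0234) in delta-POZ against Halo-Trl and of 0.34 (SE 0.12, adjusted p = 0.447) in delta-Q against Halo-Trl. The counts are of whole genes, so they do not check which domain is missing, and the delta-POZ call was lost without delta-POZ 1 (adjusted p = 0.0732), delta-POZ 2 (0.0574), Halo-Trl 2 (0.0669) or Halo-Trl 3 (0.104), and without the 3 libraries together (0.0666), within a range up to 0.104 over all alternatives.

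In delta-POZ discs 23 of the 86 ribosomal protein genes were lower than in Halo-Trl discs and 0 were higher, and most of the others had a fold change on the same side of 0. The calls are those of edgeR's quasi-likelihood test at an adjusted p under 0.05, with Benjamini-Hochberg adjustment over the 10359 genes tested. Over all genes 5.2% were called lower and 4.93% higher. At an unadjusted p under 0.05 the members were 46 lower and 1 higher, and DESeq2 called 35 lower and 0 higher, where it called 7.64% of all genes lower and 8.77% higher. The authors' deposited table, whose fold changes match this comparison, gives the same 35 and 0 counts, against 7.44% lower and 8.46% higher among its genes. All 86 members passed the filter on low counts.

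Members that were not called mostly lay on that side too. The log2 fold change was below 0 for 83 of the 86, against 50.5% of all genes tested. Its median was -0.34, equal to a change of -21.0%, and the median of all genes was -0.01. Large and small subunit genes stood close together, with medians of -0.34 each and with 15 of 50 and 8 of 36 called lower. In 51 of the 86 every delta-POZ library lay below every Halo-Trl library, which held for 16.9% of all genes, and all 23 called members were among genes with such separated groups. Few differences were large: 1 called member, RpL24, fell by a log2 fold change of more than 1, while 20 members lay within 0.2 of no change.

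**Figure D1:**
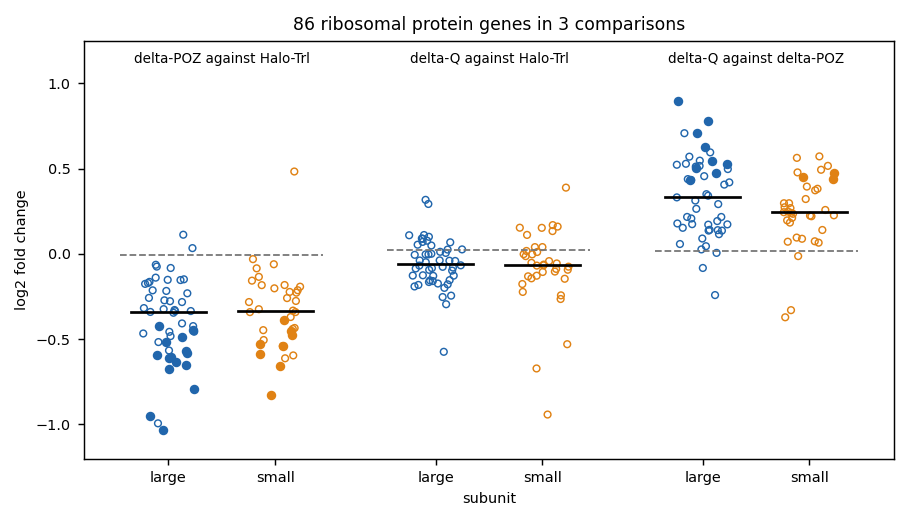
Log2 fold change of each of the 86 ribosomal protein genes in the 3 comparisons, large and small subunit apart. Filled points have an adjusted p under 0.05, black bars are medians of the members and dashed lines are medians of all 10359 genes tested; the points of delta-POZ against Halo-Trl sit mostly below the dashed line, and those of delta-Q against Halo-Trl straddle it.

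The count depended on single libraries. With Halo-Trl 3 left out, 6 members were called lower (RpL17, RpL24, RpL34b, RpL41, RpS20 and RpS27A), and over all genes that fit called 221 lower, against 539 with all libraries. Leaving out Halo-Trl 2 gave 11 calls, leaving out either delta-POZ 2 or delta-POZ 3 gave 9, and leaving out any other single library gave 17 to 29. Over all genes the fits without Halo-Trl 2, delta-POZ 2 or delta-POZ 3 called 260, 344 and 330 lower. In these fits 18 of the 23 lost the call at least once, with an adjusted p of at most 0.185. The log2 fold change was below 0 in 76 to 84 of the 86 members in each of those 9 fits. Without delta-Q 3, delta-POZ 2 and Halo-Trl 1 together, 14 members were called lower, all of them among the 23, and 80 of 86 were below 0. RpL17, RpL24, RpL34b, RpL41 and RpS27A were called lower under all 19 alternatives tried.

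RpL24, a large subunit protein that lies at the face where the subunits meet, fell furthest among the called genes. It had 83.9, 91.3 and 104 CPM in delta-Q discs, 60.7, 56.7 and 44.9 CPM in delta-POZ discs and 115, 120.4 and 97.2 CPM in Halo-Trl discs. The delta-POZ libraries lay well below the others, and delta-Q and Halo-Trl overlapped. The difference between delta-POZ and Halo-Trl was a log2 fold change of -1.03 (SE 0.14, adjusted p = 0.00187), and the authors' deposited table gives -1.01 with an adjusted p of 5.41e-09. In the RefSeq annotation RpL24 overlaps CG7099, and reads of overlapping genes cannot be told apart here since the strand setting of the counting is not given in the sources used here.

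RpL17, whose protein lines the tunnel through which the new chain leaves, had 153, 155 and 172 CPM in delta-Q discs, 112, 118 and 115 CPM in delta-POZ discs and 167, 179.8 and 177 CPM in Halo-Trl discs. Here the replicates were tight, and every delta-POZ library was below every other library. The fold change against Halo-Trl was -0.60 (SE 0.09, adjusted p = 0.00267). RpL41, the smallest protein of the ribosome, had 93.9, 84.0 and 75.8 CPM in delta-Q discs, 58.6, 56.0 and 49.6 CPM in delta-POZ discs and 79.2, 83.4 and 92.1 CPM in Halo-Trl discs. Its delta-POZ values were again below all others, with a log2 fold change of -0.63 (SE 0.11, adjusted p = 0.00792) against Halo-Trl, and its gene overlaps the sodium channel gene NaCP60E in the annotation.

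The stalk of the large subunit, which recruits translation factors, is made of RpLP0, RpLP1 and RpLP2. RpLP1 took 15.5% to 23.6% of all ribosomal protein reads in a library and had 5254, 9740.5 and 8724 CPM in delta-Q discs, 5033, 4568 and 4922 CPM in delta-POZ discs and 7509, 10119.8 and 10476 CPM in Halo-Trl discs. The delta-POZ libraries were all below the Halo-Trl ones, but delta-Q 1 lay near the delta-POZ level and apart from delta-Q 2 and 3. The change in delta-POZ against Halo-Trl was -0.95 on the log2 scale (SE 0.22, adjusted p = 0.0225), and the call was lost when any single delta-POZ library, Halo-Trl 2 or Halo-Trl 3 was left out (adjusted p from 0.0575 to 0.101). RpLP2 had 269, 244 and 222 CPM in delta-Q discs, 189, 158 and 163 CPM in delta-POZ discs and 251, 229 and 276 CPM in Halo-Trl discs, again with delta-POZ below the rest, and a log2 fold change of -0.57 (SE 0.12, adjusted p = 0.0152); its call was lost without delta-POZ 2 (0.0536), delta-POZ 3 (0.0603) or Halo-Trl 3 (0.0760), or without delta-Q 3, delta-POZ 2 and Halo-Trl 1 together (0.0760). RpLP0, the base of the stalk, was not called, with a log2 fold change of -0.28 (95% interval -0.63 to 0.06, adjusted p = 0.292).

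Some ribosomal proteins are made as fusions with ubiquitin or a ubiquitin-like protein. RpS27A, a small subunit protein fused to ubiquitin, had 429.6, 582 and 488 CPM in delta-Q discs, 357, 275 and 383 CPM in delta-POZ discs and 567, 612 and 623 CPM in Halo-Trl discs. The delta-POZ libraries were separated from the rest, and delta-Q 1 and 3 lay below every Halo-Trl library while delta-Q 2 did not. It fell by 0.83 on the log2 scale in delta-POZ (SE 0.15, adjusted p = 0.00858), the largest fall among called small subunit genes. RpL40, the ubiquitin fusion of the large subunit, had a log2 fold change of -0.18 (95% interval -0.49 to 0.14, adjusted p = 0.478), and RpS30, fused to a ubiquitin-like protein, had one of -0.21 (95% interval -0.55 to 0.12, adjusted p = 0.412). Differences between these genes were not tested.

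Members known for a role at one step of ribosome assembly or function differed in their values. RpL10, the protein whose late loading completes the large subunit, had 2005, 2738 and 2684 CPM in delta-Q discs, 1574, 1615 and 1727 CPM in delta-POZ discs and 2186, 2689.8 and 2976 CPM in Halo-Trl discs. Its delta-POZ libraries lay below all others, and the fold change against Halo-Trl was -0.68 (SE 0.15, adjusted p = 0.0221), and this call was lost when any single delta-POZ library, Halo-Trl 2 or Halo-Trl 3 was left out (0.0579 to 0.108). RpL5 and RpL11, which enter the large subunit together with a small ribosomal RNA, were not called, at -0.23 (adjusted p = 0.381) and -0.16 (adjusted p = 0.645). RpS12, which reads out ribosomal protein dose in fly cell competition, had 246, 273 and 236 CPM in delta-Q discs, 188, 174 and 176 CPM in delta-POZ discs and 201, 261 and 272 CPM in Halo-Trl discs. All delta-POZ values were below all Halo-Trl values, and its adjusted p was the highest among the called members, with a log2 fold change of -0.45 (SE 0.13, adjusted p = 0.0475). That call did not hold under 12 of 19 alternatives, with an adjusted p up to 0.185, among them leaving out any single delta-POZ library, delta-Q 2, delta-Q 3, Halo-Trl 2 or Halo-Trl 3. RpS3, at the entry of the message channel, and sta, the fly homolog of the laminin receptor, were not called, at -0.18 (adjusted p = 0.507) and -0.16 (adjusted p = 0.478).

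The other called members included RpL7A, RpL9, RpL14, RpL21, RpL23, RpL27, RpL32, RpL34b and RpL10Ab of the large subunit and RpS5a, RpS18, RpS20, RpS23 and RpS28b of the small. Among them RpS5a had the smallest fall, at -0.39 (adjusted p = 0.0314), and RpL34b the largest, at -0.79 (adjusted p = 0.00400). RpL9 and RpL7A lost their calls without Halo-Trl 3 alone (adjusted p = 0.0524 and 0.0596). RpS20 lost its call without delta-POZ 2 (0.0506) and without the 3 libraries together (0.0647). The calls of RpS23, RpS5a and RpL10Ab were less firm. They were lost without any single delta-POZ library (up to 0.159, 0.122 and 0.124) and with the replicate number as a block (0.0628, 0.0550 and 0.0699). RpL14, RpL21, RpL23, RpL27, RpL32, RpS18 and RpS28b also lost their calls in some fits without 1 library. Just short of the threshold, RpS2, RpL35 and RpL18 had adjusted p of 0.0545, 0.0642 and 0.0665 with fold changes of -0.51, -0.46 and -0.47.

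**Figure D2:**
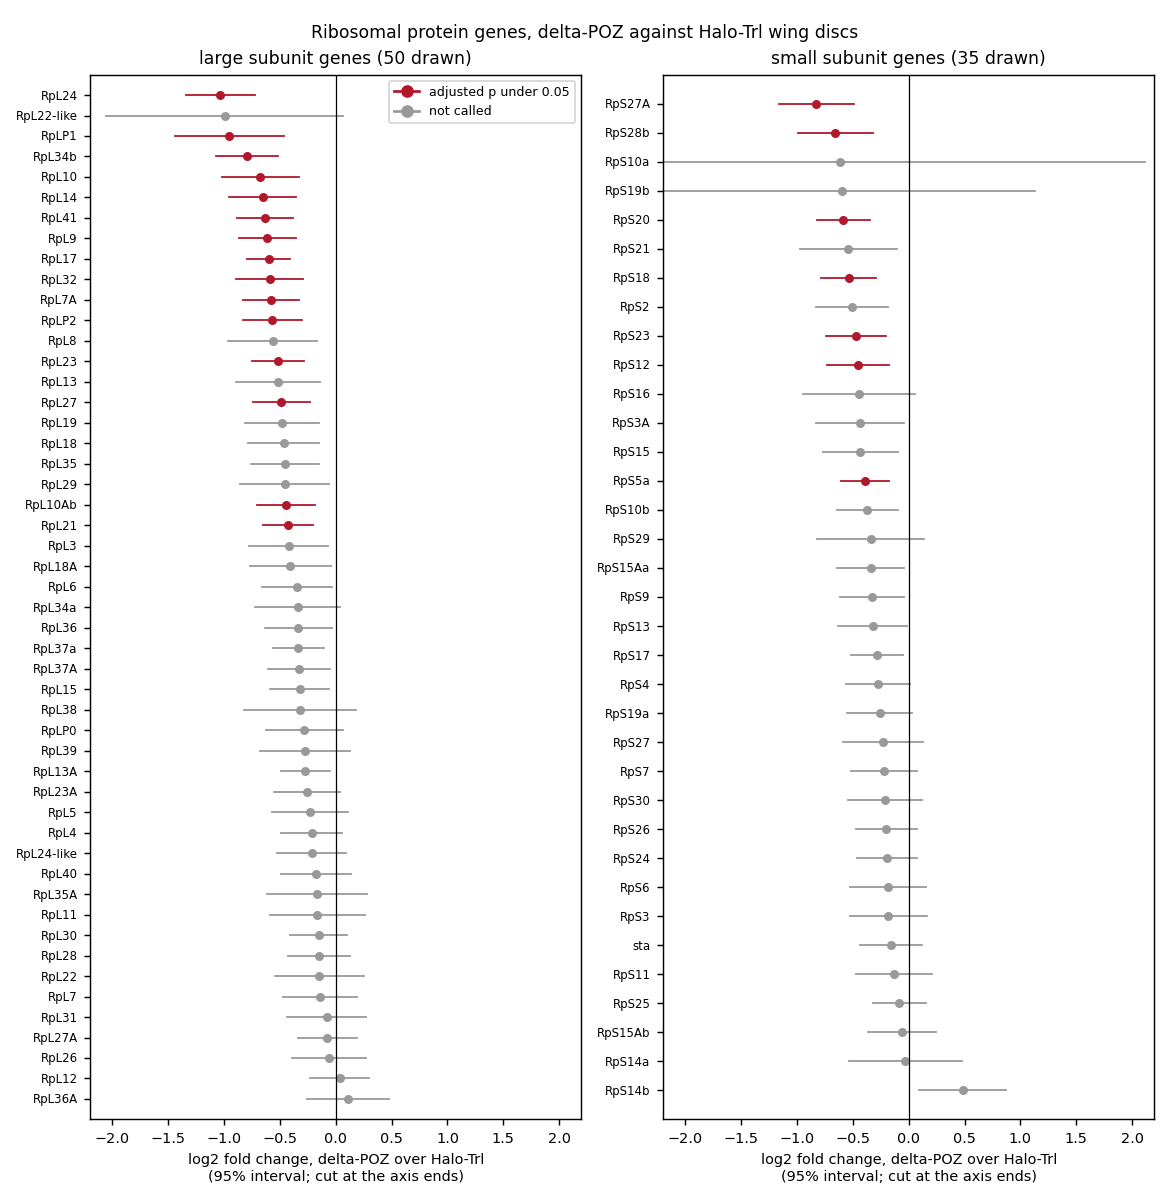
Log2 fold change in delta-POZ over Halo-Trl discs with its 95% interval for the ribosomal protein genes named here, ordered within each subunit. Genes in red have an adjusted p under 0.05 and all lie left of 0; RpS14b is the member furthest to the right.

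RpS14b was the 1 member with every delta-POZ library above every Halo-Trl library, which held for 16.2% of all genes. It had 14.5, 15.3 and 11.6 CPM in delta-Q discs, 19.5, 19.1 and 15.0 CPM in delta-POZ discs and 14.4, 10.996 and 12.9 CPM in Halo-Trl discs, so the gap between delta-POZ and Halo-Trl was small and delta-Q overlapped both. The log2 fold change was 0.48 (SE 0.18), with an adjusted p of 0.114, and it was not called. RpS14a, its neighbouring copy that encodes the same protein, had a fold change of -0.03 (95% interval -0.54 to 0.48, adjusted p = 0.951) and spread widely in delta-POZ, at 50.0, 32.5 and 26.6 CPM, against 35.3, 36.4 and 39.7 CPM in Halo-Trl. Because the copies are near-identical, how the counting divided reads between them is uncertain, as for any other near-identical pair. RpL36A and RpL12 were the other members above 0, at 0.11 (adjusted p = 0.725) and 0.03 (adjusted p = 0.894).

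Several ribosomal proteins of the fly have duplicate genes, and the copies did not share 1 outcome. RpL34b was called lower in delta-POZ: it had 27.8, 26.5 and 25.1 CPM in delta-Q discs, 18.3, 15.8 and 14.6 CPM in delta-POZ discs and 27.5, 28.2 and 28.5 CPM in Halo-Trl discs, with the delta-POZ values apart from tight values in the other genotypes. Its copy RpL34a overlapped between the groups, at 9.95, 12.3 and 11.9 CPM in delta-POZ against 15.9, 15.2 and 12.2 CPM in Halo-Trl, and its fold change was -0.34 (95% interval -0.72 to 0.04, adjusted p = 0.246). The difference between the copies was not tested. RpS15Aa had a fold change of -0.34 (adjusted p = 0.145) and RpS15Ab one of -0.06 (adjusted p = 0.826). RpS10b and RpS19a, the widely used copies of their pairs, were at -0.37 (adjusted p = 0.0856) and -0.26 (adjusted p = 0.250). RpL22 was at -0.15 (adjusted p = 0.657), and RpL37a at -0.34 (adjusted p = 0.0668).

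The copies known mainly from the germline were nearly silent in these discs. RpL22-like had 1.26, 1.55 and 1.81 CPM in delta-Q discs, 1.43, 0.831 and 1.19 CPM in delta-POZ discs and 3.82, 1.32 and 1.73 CPM in Halo-Trl discs, and RpS10a and RpS19b averaged below 1 CPM in each genotype. RpS10a ranged from 0.0361 to 1.45 CPM within Halo-Trl alone and RpS19b from 0.162 to 0.697 CPM, so the intervals of their fold changes in delta-POZ were wide, at -0.61 (95% interval -3.34 to 2.12) and -0.60 (95% interval -2.32 to 1.13). These 3 were the members nearest the read minimum. Just outside it, RpS5b had 16 reads in delta-Q, 16 in delta-POZ and 36 in Halo-Trl, summed over 3 libraries each, of which delta-POZ 2 and Halo-Trl 3 held every read of their genotype. RpS28a had 18 reads in all, RpL37b had 1, and RpL10Aa, RpL7-like and RpS28-like had 0 in all 9 libraries. RpL24-like, included by its name although its yeast relative is an assembly factor and not a ribosomal protein, had a fold change of -0.21 (adjusted p = 0.375).

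In delta-Q discs 0 of the 86 genes were called in either direction against Halo-Trl discs by edgeR, which called 0.656% of all genes, and 3 members had an unadjusted p under 0.05. DESeq2 called 1 lower and 0 higher, where it called 0.803% of all genes lower and 1.42% higher. The median log2 fold change was -0.06 (all genes, 0.02), and 58 of 86 were below 0 (all genes, 46.9%). The 95% interval lay wholly above a log2 fold change of -0.5 for 71 members, so a fall of that size was outside the interval for most of them, and for the other 15 it was not.

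RpS28b, a small subunit protein and the only well-expressed one of the RpS28 copies, came nearest to a call. It had 92.4, 119.8 and 118 CPM in delta-Q discs, 122, 104 and 107 CPM in delta-POZ discs and 141, 203 and 182 CPM in Halo-Trl discs. Both deletion lines were below every Halo-Trl library and overlapped with each other. The fold change was -0.67 (SE 0.15, adjusted p = 0.114) in delta-Q and -0.66 (SE 0.15, adjusted p = 0.0227) in delta-POZ, which share the Halo-Trl libraries. In delta-POZ RpS28b lost its call without delta-POZ 2 (0.0769), delta-POZ 3 (0.0752), Halo-Trl 2 (0.0949) or Halo-Trl 3 (0.0906). In delta-Q, DESeq2 called it lower (adjusted p = 0.00272), as did edgeR without delta-Q 3, delta-POZ 2 and Halo-Trl 1 (0.0395), within a range of 0.00272 to 0.425 over the alternatives. In the annotation RpS28b overlaps CG15317.

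RpS6, the small subunit protein that S6 kinase phosphorylates, and RpL7A pointed the other way in delta-Q. RpS6 had 357, 258 and 278 CPM in delta-Q discs, 219.9, 214 and 167 CPM in delta-POZ discs and 249, 204 and 229.7 CPM in Halo-Trl discs; the delta-Q libraries were above every other library, by little for delta-Q 2. Its fold change in delta-Q against Halo-Trl was 0.39 (SE 0.15, adjusted p = 0.516). RpL7A had 498, 426 and 445 CPM in delta-Q discs, 248, 271 and 215 CPM in delta-POZ discs and 363, 353 and 384 CPM in Halo-Trl discs, which places the 3 genotypes in 3 separate ranges. Against Halo-Trl its fold change was 0.32 in delta-Q (SE 0.11, adjusted p = 0.438), not called, and -0.58 in delta-POZ (SE 0.11, adjusted p = 0.0118), called. Reads at RpL7A may include those of a small nucleolar RNA gene inside it.

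**Figure D3:**
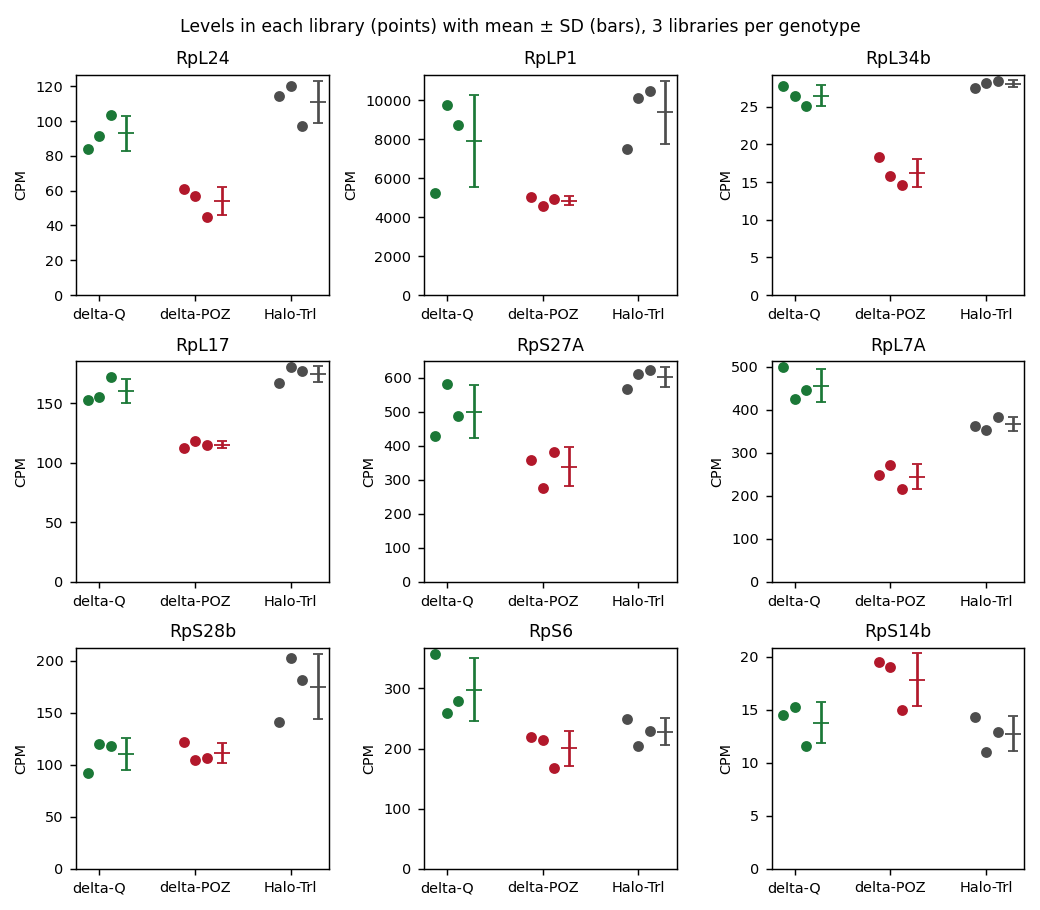
Level of 9 ribosomal protein genes in CPM in each library (points) with the mean and SD of 3 libraries (bars), delta-Q, delta-POZ and Halo-Trl from left to right. The delta-POZ points of RpL24, RpL34b, RpL17, RpS27A and RpL7A lie below both other genotypes, those of RpS28b beside delta-Q, and those of RpS14b above Halo-Trl.

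Set directly against each other, the deletion lines differed. In delta-Q against delta-POZ 12 members were called higher and 0 lower, 9 of the large subunit and 3 of the small, where 3.05% of all genes were called higher and 1.55% lower. The log2 fold change was above 0 for 81 of 86 (all genes, 51.7%), with a median of 0.27 (all genes, 0.02). The groups were separated upward in 37 members, against 13.3% of all genes, and DESeq2 called 25 higher (all genes, 5.38%). All 12 were among the 23 members lower in delta-POZ against Halo-Trl, which is 52.2% of the 23 and 100% of the 12, and both comparisons use the delta-POZ libraries. RpL7A led with a log2 fold change of 0.90 (SE 0.11, adjusted p = 0.00206). It was followed by RpL34b at 0.71 (adjusted p = 0.0114), RpL24 at 0.78 (adjusted p = 0.0129) and RpL41 at 0.63 (adjusted p = 0.0140). RpLP1, at 0.71, was not called (SE 0.22, adjusted p = 0.100), and it was called by DESeq2 (0.0150) and without delta-Q 1 (0.0167).

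That count rested on few libraries too. It was 2 without delta-POZ 3, 4 without delta-POZ 2, 7 without delta-POZ 1, 5 without delta-Q 2, and 6 without Halo-Trl 2 or without Halo-Trl 3. Over all genes 316 were called higher with all libraries and 152 to 219 in these 6 fits. Without delta-Q 3, delta-POZ 2 and Halo-Trl 1 together it was 2, and 12 of the 86 fold changes were below 0. RpL7A was the member called under all 19 alternatives. RpL24 lost its call when the 3 libraries were left out together (adjusted p = 0.0768), and RpL34b when delta-POZ 2 (0.0505) or delta-POZ 3 (0.0542) was left out, among others.

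Summed over the members, the reads were fewest in delta-POZ. Ribosomal protein genes took 4.525%, 5.40% and 5.385% of the reads outside mitochondrially encoded genes in delta-Q, 3.98%, 4.14% and 3.95% in delta-POZ, and 5.31%, 5.54% and 5.74% in Halo-Trl. All delta-POZ libraries were below all others, and delta-Q 1 was the lowest of its genotype. The means were 5.10% ± 0.501 in delta-Q, 4.025% ± 0.103 in delta-POZ and 5.53% ± 0.218 in Halo-Trl (SD, n = 3 each). Without RpLP1 the shares were 3.80%, 4.16% and 4.25% in delta-Q, 3.315%, 3.50% and 3.29% in delta-POZ, and 4.27%, 4.26% and 4.39% in Halo-Trl, with delta-POZ still below all others. Of all reads, mitochondrial ones included, the means were 3.89% ± 0.211 in delta-Q, 3.03% ± 0.173 in delta-POZ and 4.10% ± 0.148 in Halo-Trl. In whole discs, fewer cells rich in ribosomes and less of this RNA per cell cannot be told apart.

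**Figure D4:**
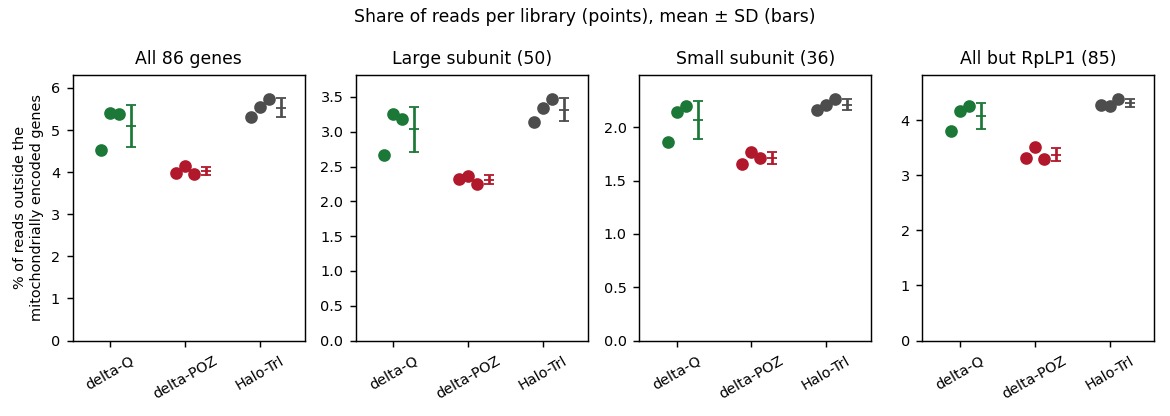
Share of a library's reads outside the mitochondrially encoded genes that fell in ribosomal protein genes, for all 86 members, each subunit, and all members but RpLP1. Points are libraries and bars are mean and SD; in each panel the delta-POZ points lie below every delta-Q and Halo-Trl point.

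Within a genotype the members did not move as 1 block. The SD of log2 CPM over 3 libraries had a median over members of 0.19 in delta-Q, 0.169 in delta-POZ and 0.125 in Halo-Trl, below the 0.313, 0.243 and 0.225 of all genes. Members and all genes were not matched for read level, so whether the lower spread is particular to the members was not tested. delta-Q 1 was the highest delta-Q library for 38 members, the lowest for 37 and in the middle for 11. Chosen after their values were seen, RpS16 had 325, 582 and 633 CPM and RpS29 804, 1344 and 1522 CPM in delta-Q 1, 2 and 3, so both were low in the first, while RpL8 had 128, 80.9 and 85.8 CPM and was high there. RpL38 followed RpS16, at 485, 785 and 828 CPM. delta-Q 1 also had the lowest mitochondrial share, 15.1%, and the part of that in these deviations was not tested.

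These deviations were also compared between genotypes. Over the 83 members with a mean of at least 500 reads, the deviations of delta-Q 1 from its genotype's mean correlated with those of delta-POZ 1 at r = 0.583, Halo-Trl 1 at r = 0.512, delta-POZ 3 at r = -0.666 and Halo-Trl 2 at r = -0.661. The pairs with delta-POZ 2 and Halo-Trl 3 were weaker, at r = 0.212 and 0.0283. All genes, which were not limited to 500 reads and so not matched for level, gave 0.203, -0.114, 0.00905, 0.0469, -0.173 and 0.111 for these pairs in turn. These are descriptions across genes that share libraries, depth and normalization, and genes are not independent replicates. The correlations depend on leaving out the 3 rarest members: over all 86 the same pairs gave 0.701, 0.674, -0.808, 0.219, 0.282 and -0.628. The signs of the pairs with Halo-Trl 2 and Halo-Trl 3 thus reversed, and RpS10a alone deviated by 2.14 in delta-Q 1.

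**Figure D5:**
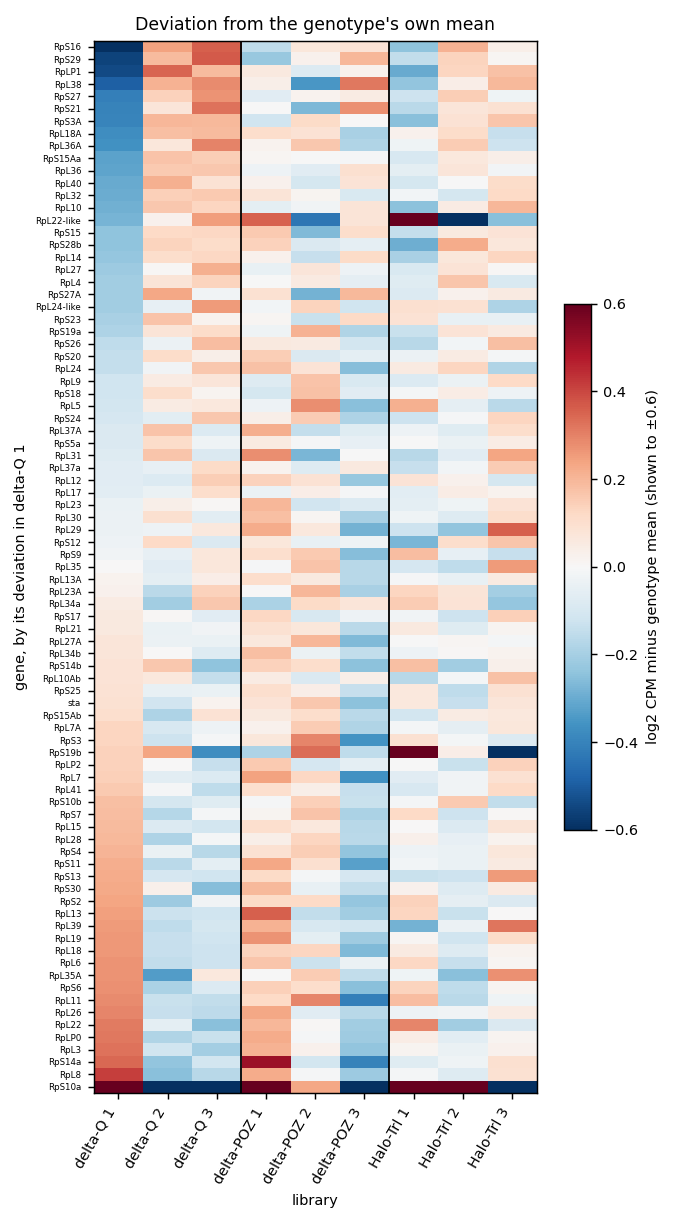
Deviation of the named members' log2 CPM from the mean of their own genotype in the 9 libraries, with members ordered by delta-Q 1 (colours end at 0.6 in either direction). Members low in delta-Q 1, such as RpS16 and RpS29 at the top, are mostly high in delta-Q 2 and delta-Q 3 and the rows at the bottom show the reverse, as deviations within a genotype sum to 0.

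Many of these genes share their locus with others. By the RefSeq annotation 29 of the 86 hold small nucleolar RNA genes, 18 more overlap another kind of gene, and 39 overlap none. In delta-POZ against Halo-Trl 8, 7 and 8 of these were called lower, with medians of -0.28, -0.46 and -0.34. Calls were thus made among members free of overlap too, while the counts of the others may include reads of the neighbour. Among those others RpL17 holds 4 small nucleolar RNA genes, RpL14 and RpS12 hold 2 each, and RpS27A overlaps Ip259. Of the 5 members called lower in delta-POZ under all 19 alternatives, RpL34b alone overlaps no gene. The authors gave 169 gene names to 186 embryo loops and 164 to 209 wing disc loops, and 0 were ribosomal protein genes. The members are 86 of the 17868 genes counted, so names this few cannot show whether loops avoid them.

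Genes that act with ribosomal proteins were followed as lists. The proposed regulators at their promoters, M1BP, Trf2, Dref, TfIIA-L and TfIIA-S, had 0 of 5 called by edgeR in each of the 3 comparisons, and DESeq2 called Trf2 lower in delta-Q against delta-POZ (log2 fold change -0.45, adjusted p = 0.0168). In delta-POZ against Halo-Trl, Dref was at 0.28 (adjusted p = 0.245) and Trf2 at 0.25 (adjusted p = 0.282). Of 5 genes of the TOR pathway and of message-level control (Tor, raptor, S6k, Thor and larp) 0 were called, and S6k came nearest in delta-POZ, at -0.37 (adjusted p = 0.126). Over all genes edgeR called 5.2% lower and 4.93% higher in delta-POZ against Halo-Trl. It called 0.656% in delta-Q against Halo-Trl, and 3.05% higher and 1.55% lower in delta-Q against delta-POZ. At such shares 0 of 5 says little about either list.

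Among chaperones and factors of subunit joining, 2 of 5 tested were lower in delta-POZ and 0 higher, against 5.2% lower and 4.93% higher over all genes. NO66, a ribosomal oxygenase, had 29.1, 21.0 and 18.6 CPM in delta-Q discs, 11.7, 9.18 and 9.94 CPM in delta-POZ discs and 19.3, 25.04 and 21.2 CPM in Halo-Trl discs. Its delta-POZ libraries were below all others, with a log2 fold change of -1.09 (SE 0.19, adjusted p = 0.00767) against Halo-Trl and of 1.16 (SE 0.19, adjusted p = 0.00912) for delta-Q against delta-POZ. eIF6, which holds the large subunit apart from the small until it is finished, had 23.8, 18.2 and 17.8 CPM in delta-Q discs, 15.3, 10.9 and 12.5 CPM in delta-POZ discs and 25.1, 19.6 and 22.9 CPM in Halo-Trl discs, and in delta-POZ a log2 fold change of -0.80 (SE 0.18, adjusted p = 0.0213). The eIF6 call was lost without delta-POZ 2 (0.0642), delta-POZ 3 (0.0688), Halo-Trl 1 (0.0638) or Halo-Trl 3 (0.0801), and without the 3 libraries together (0.127). Of the partners bound to the ribosome, bic, the beta subunit of the nascent chain complex, was 1 of 4 called lower: it had 352, 345 and 352 CPM in delta-Q discs, 238, 205 and 221 CPM in delta-POZ discs and 355, 369.7 and 344 CPM in Halo-Trl discs, and a log2 fold change of -0.69 (SE 0.09, adjusted p = 0.00187) in delta-POZ. Rack1, eEF2 and Nacalpha were not called there, at -0.62, -0.66 and -0.25 (adjusted p = 0.110, 0.0890 and 0.370). Rack1 and eEF2 were called lower by DESeq2 (adjusted p = 0.0272 and 0.0131), and by edgeR with the 2 genotypes alone (0.0341 and 0.0418), with the replicate block (0.0313 and 0.0448) and without delta-Q 1 (0.0257 and 0.0412). In delta-Q against Halo-Trl, Nacalpha, the alpha subunit of that complex, had 177, 131 and 129.6 CPM in delta-Q discs, 229, 189 and 219 CPM in delta-POZ discs and 258, 209 and 291 CPM in Halo-Trl discs. Every delta-Q library was below all others, with a log2 fold change of -0.79 (SE 0.16, adjusted p = 0.0735) that was not called, while DESeq2 called it lower (6.85e-05), as did 5 of the other alternatives with edgeR.

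Genes known to respond to a shortage of ribosomal proteins were 2 of 5 higher in delta-POZ and 0 lower, against 4.93% higher and 5.2% lower over all genes. Xrp1, a transcription factor needed for the loss of Minute cells, had 171, 137 and 109 CPM in delta-Q discs, 154, 138 and 176 CPM in delta-POZ discs and 84.2, 84.3 and 88.5 CPM in Halo-Trl discs. Both deletion lines were above every Halo-Trl library. The fold change was 0.86 (SE 0.16, adjusted p = 0.00806) in delta-POZ and 0.70 (SE 0.16, adjusted p = 0.108) in delta-Q, where 0 ribosomal protein genes were called, and delta-Q against delta-POZ gave -0.17 (95% interval -0.51 to 0.18). In delta-Q it was called by DESeq2 (0.00206), without delta-Q 3 (0.0448) and without the 3 libraries together (0.0410), within a range up to 0.380. crc, the fly homolog of ATF4, had 174, 135 and 127 CPM in delta-Q discs, 198, 162 and 163 CPM in delta-POZ discs and 115, 112 and 112 CPM in Halo-Trl discs, with a log2 fold change of 0.63 (SE 0.13, adjusted p = 0.0153) in delta-POZ; this call was lost without delta-POZ 1 (0.0529), Halo-Trl 2 (0.0659) or Halo-Trl 3 (0.0715). Irbp18, PPP1R15 and GstE6 were not called in delta-POZ, at 0.26, -0.01 and -1.55 (adjusted p = 0.456, 0.963 and 0.618). GstE6 was nearly silent, with 14 summed reads in delta-POZ and 45 in Halo-Trl, and its 95% interval was wide, at -5.30 to 2.19.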

How the data were processed

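RNA-seq was made from wing imaginal discs of delta-Q, delta-POZ and Halo-Trl larvae, 3 libraries each, which per the labels' protocols are biological triplicates of 30 discs in TRIzol. The authors deposited unnormalized whole-gene read counts for these libraries. For the RNA, featureCounts and DESeq2 were used, per the submitters' processing notes. The sources used here give no tool version, aligner, genome build or strand setting for the counting. The authors' own comparison, as deposited, gives a log2 fold change and a p-value with its adjusted value per gene. It carries no label, and 14478 of the 14598 fold changes (99.2%) lay within 0.01 of a DESeq2 refit of delta-POZ against Halo-Trl. The log2 values in the deposited loop tables were not analysed here, and those tables were read only for gene names.

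The counts of all 17868 genes were fitted with edgeR 4.0.16 in R 4.3.3 (glmQLFit, glmQLFTest), with TMM normalization and filterByExpr, which left 10359 genes. A single model held the 9 libraries, with genotype and no covariate. A gene was called at a Benjamini-Hochberg adjusted p under 0.05 over those genes, whatever its fold. The SE was taken as |log2 fold change| / sqrt(F), and 95% intervals use the test's degrees of freedom. CPM are counts scaled to the effective library size. They are not divided by length, so levels are compared between genotypes and not between genes. The libraries held 57673928 to 85575887 reads in genes, 0 pairs of libraries were identical, and 83 of the 86 members averaged at least 500 reads per library. Overlapping genes and current names came from RefSeq (Release 6 plus ISO1 MT), where 86 of 86 members matched. The fit was tested on simulated data with known changes.

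The members, the gene lists and the tests were chosen with earlier results of these data known. Named genes are the called members with the smallest p (up to 15 per comparison), the 2 highest and 2 lowest per subunit, all duplicate copies, members of known special role, list genes called or nearest to a call, and Trl; RpS16, RpS29, RpL8, RpL38 and the remaining called or nearly called members were named after their values were seen. The alternatives were RLE and upper quartile normalization, normalization without mitochondrial or ribosomal protein genes, DESeq2 1.42.0, 2 other filters, fits of 2 genotypes alone, a replicate block, leaving out each library in turn and, chosen after seeing the data, leaving out delta-Q 3, delta-POZ 2 and Halo-Trl 1 together. The CUT&Tag samples (7) and the contact maps were not analysed here, and no sequences are printed. One member enters every count but is not reported singly here.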

Additional observations from a re-analysis of the deposited data

How the results depend on the processing

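In delta-POZ against Halo-Trl, the count of ribosomal protein genes called lower was 23 and ranged from 6 to 29 when one library was left out. It was 35 with DESeq2, 14 without delta-Q 3, delta-POZ 2 and Halo-Trl 1 together, and 19 to 28 under the other alternatives, and 0 were called higher under any of the 19. Fold changes below 0 numbered 76 to 84 of 86 with one library left out. In delta-Q against Halo-Trl 0 were called lower, or 1 (RpS28b) with DESeq2 and 1 without those 3 libraries, and 0 higher under all 19. In delta-Q against delta-POZ, the count called higher was 12, ranged from 2 to 12 with one library left out, and was 7 with upper quartile normalization, 25 with DESeq2, 7 with no filter beyond 1 read, 3 with the 2 genotypes fitted alone and 2 without the 3 libraries together. The cause of these moves was not tested, though fits without a library or a genotype hold fewer samples. Normalization choices moved the median of all genes by less than 0.1 on the log2 scale. No called member or list gene changed direction under any alternative.

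With the replicate number as a block, 23 members were called lower in delta-POZ against Halo-Trl, 19 of them the same genes, 0 in delta-Q against Halo-Trl, and 11 were called higher in delta-Q against delta-POZ. The labels do not say that a number marks a shared day. Over all genes, deviations of same-numbered libraries correlated at -0.139 to 0.203 and were not all above 0.1, so the numbers were not taken to pair the samples. Over the 83 members with a mean of at least 500 reads, same-numbered libraries correlated at -0.392 (delta-POZ 2 with delta-Q 2) to 0.583 (delta-POZ 1 with delta-Q 1). Libraries of different number and genotype correlated there at -0.666 to 0.646. Whether a number marks a shared batch was not tested.

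With 3 libraries a genotype, the median SE of a member's log2 fold change was 0.14, and members under 1 CPM had intervals several log2 units wide.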
